A study of Mus musculus with 6 samples.

Results

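Rab GTPases are small GTP-binding proteins that mark the membranes of vesicles and organelles and decide where a vesicle is sent. A Rab is switched on by an exchange factor that loads GTP and switched off by an activating protein that speeds GTP hydrolysis. Only the active, lipid-bound form recruits effectors that tether, move or fuse vesicles. In dendritic cells (DC) this traffic carries antigen from the surface to the compartments where MHC molecules are loaded, and brings those molecules back out. The Rab genes were taken from the deposited array values as every gene whose single symbol was Rab, a number and at most 1 further letter, which gave 59 of 19938 genes with 1 symbol. Rab3ip, an exchange factor, Rab5if and the opposite-strand gene Rab10os carry more letters, are not Rab GTPases and were kept apart. Genes with more than 1 probe set were represented by the brightest, and a gene counted as measured when its log2 level reached the background limit that the study set, 6.5, on 1 array or more. By that rule 40 of the 59 Rab genes were measured, among 9922 measured genes in all.

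The study asked which genes respond to the transcription factor Runx3 in CD4+ DC of the mouse spleen. RNA of sorted CD4+ DC was hybridised to 6 Affymetrix arrays, 1 per male mouse aged 6 weeks. The wild-type group (WT, Runx3 +/+) held 3 mice and the Runx3-/- group held 3 mice that lacked Runx3 in every cell of the body, so that the DC and the tissue around them both lacked it. Each of 3 litters gave a WT and a Runx3-/- mouse, and array numbers 1 to 3 name the litter. Whether cells were also gated on Esam is unclear from the labels.

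The targeted gene followed its labels. Runx3 had log2 levels of 11.24, 11.22 and 11.11 in the WT arrays and 9.16, 9.30 and 9.16 in the Runx3-/- arrays. The log2 difference was -1.98 (SE 0.08, limma, adjusted p = 0.0027), and 25.3% of the WT signal remained. With the litter as a block the adjusted p was 0.061, and it was 0.053 when WT 1 was left out. By exact permutation p was 0.1, which is as low as a design of 3 against 3 arrays can go, so adjusted p values below come from limma fitted across all measured probe sets. The arrays were alike in level, with medians of 6.57 to 6.65 over all probe sets and of 9.95 to 10.14 over the 40 measured Rab genes. All 9 markers of CD4+ DC that were looked up, Itgax, H2-Ab1, Cd4, Sirpa, Itgam, Irf4, Flt3, Zbtb46 and Esam, lay above background.

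Most Rab genes kept close to their WT level. Rab31, an early endosome Rab, was higher in Runx3-/- DC and Rab37, a Rab of secretory granules, was lower, each past an adjusted p of 0.05. Rab7b and Rab38, of late endosomes and of lysosome-related organelles, were also higher by more than 1.5-fold but only at an unadjusted p. The log2 differences (Runx3-/- minus WT) of the 40 Rab genes ran from -1.05 to 0.92 with a median of 0.01, beside -0.03 over all measured genes. The upper end is that of Rab7b, whose WT levels were all below background, and among Rab genes above background in both genotypes it was 0.63, that of Rab38. Their median size regardless of sign was 0.12, beside 0.11. The 95% interval of the difference lay within 1.5-fold in either direction for 32 of 40 Rab genes (80%), against 81.3% of all measured genes. In RNA of a sorted population, fewer cells of a type and less RNA per cell cannot be told apart.

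The counts of changed Rab genes were set beside those of all measured genes. At an adjusted p of at most 0.05, 1 of 40 Rab genes (2.5%) was higher, against 1.36% of all genes, and 1 (2.5%) was lower, against 0.907%. At the study's thresholds, which join an unadjusted p up to 0.05 to a fold of 1.5, 3 Rab genes (7.5%) were higher, against 3.05%, and 1 (2.5%) was lower, against 1.62%. At an unadjusted p alone, 4 (10%) were higher, against 7.59%, and 5 (12.5%) lower, against 11.8%. The 3 Runx3-/- values all lay above the 3 WT values for 7 Rab genes (17.5%), against 9.86%, and all below for 8 (20%), against 18.6%. These shares rest on few genes, and a single gene is 2.5% of the 40. Rab7b, which counted as measured only through the Runx3-/- arrays, is among those higher. Over genes above background in both genotypes, 2 of 39 Rab genes were higher at the study's thresholds, against 2.59% of 9575 genes, 3 at the unadjusted p alone, against 6.79%, and 6 without overlap, against 9.03%.

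**Figure D1:**
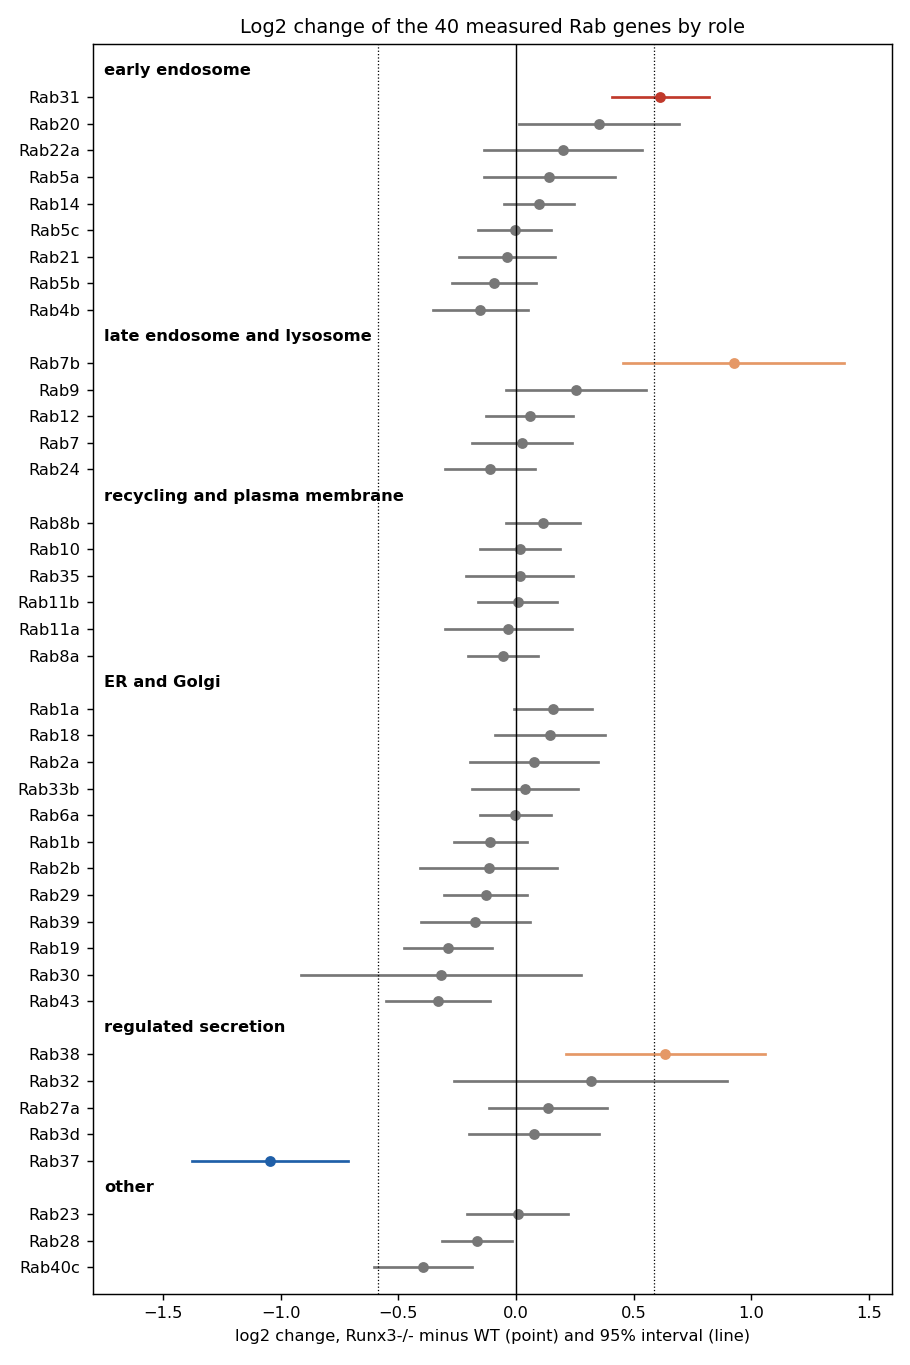
Log2 difference (Runx3-/- minus WT, horizontal axis) of the 40 measured Rab genes, grouped by role, with the 95% interval from limma as a line and 3 arrays per genotype. Dotted lines mark 1.5-fold in either direction, red and blue mark an adjusted p of at most 0.05, and orange marks the study's thresholds only. Rab31 (0.61) and Rab37 (-1.05) carry the red and the blue point, and the recycling Rabs lie between -0.06 and 0.11. The point of Rab7b uses WT values that were all below background.

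Rab37 (probe set 10382449), which takes part in the regulated release of secretory granules, fell in Runx3-/- DC. Its log2 levels were 8.85, 8.46 and 8.90 in WT and 7.69, 7.80 and 7.59 in Runx3-/- arrays. All 3 Runx3-/- arrays lay below all 3 WT arrays, with WT 2 and Runx3-/- 2, which are littermates, closest to each other. The means were 8.74 ± 0.24 and 7.69 ± 0.11 (SD, n = 3 each), a 2.06-fold lower level. The log2 difference was -1.05 (SE 0.14, 95% interval -1.38 to -0.71, limma, adjusted p = 0.029), and within the litters it was -1.16, -0.65 and -1.32. With the litter as a block the adjusted p was 0.106. It was 0.0261 without WT 2 but 0.150 without WT 1, 0.0932 without WT 3, 0.116 without Runx3-/- 1, 0.0559 without Runx3-/- 2 and 0.0998 without Runx3-/- 3. The log2 difference itself stayed between -1.19 and -0.96 whichever array was left out. Its closest relative, Rab26, another Rab of secretory granules, was below background in every array.

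Rab31 (probe set 10452485), also known as Rab22b, acts between the trans-Golgi network, early endosomes and phagosomes, and rose. The WT log2 levels were 9.62, 9.68 and 9.56, and the Runx3-/- levels were 10.25, 10.10 and 10.33. The WT arrays were close together, and every Runx3-/- array stood above them. The means were 9.62 ± 0.06 and 10.23 ± 0.12 (SD, n = 3 each), a 1.53-fold higher level. The log2 difference was 0.61 (SE 0.09, 95% interval 0.41 to 0.82, limma, adjusted p = 0.032), and within the litters it was 0.64, 0.43 and 0.78. With the litter as a block the adjusted p was 0.112. It was 0.0462 without Runx3-/- 2 but 0.160 without WT 1, 0.0788 without WT 2, 0.112 without WT 3, 0.131 without Runx3-/- 1 and 0.0973 without Runx3-/- 3, while the log2 difference stayed between 0.56 and 0.68. Rab22a, its closest relative and a Rab of early endosome sorting, had a log2 difference of 0.20 (95% interval -0.14 to 0.54, adjusted p = 0.54), with Runx3-/- 3 the highest array at 9.47. The intervals of the pair overlap, and the difference between them was not tested.

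Because the factor deleted here binds DNA at a short motif, the 250 bases before the RefSeq start of Rab31 and of Rab22a are shown with the motif in capitals. The letters searched were TGTGGT and TGCGGT on both strands. Rab31 is read on the minus strand at chr17:65772753-65773002 and Rab22a on the plus strand at chr2:173659595-173659844, both in GRCm38.p6, whereas the submitters' processing notes name mm9 for the arrays.
Rab31: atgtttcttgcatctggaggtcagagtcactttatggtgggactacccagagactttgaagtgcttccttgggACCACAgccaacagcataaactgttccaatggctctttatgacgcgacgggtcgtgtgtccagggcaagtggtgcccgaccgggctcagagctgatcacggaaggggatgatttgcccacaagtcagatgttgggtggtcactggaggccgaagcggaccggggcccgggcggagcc
Rab22a: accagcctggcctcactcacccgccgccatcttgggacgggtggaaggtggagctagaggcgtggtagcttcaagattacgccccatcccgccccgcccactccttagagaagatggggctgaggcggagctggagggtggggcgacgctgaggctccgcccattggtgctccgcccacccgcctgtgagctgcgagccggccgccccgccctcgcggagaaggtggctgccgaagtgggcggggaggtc
The Rab31 stretch held 1 match, ACCACA, the reverse complement of TGTGGT, which began 177 bases before the start, and that of Rab22a held none. Over windows of 300 bases, from 250 before to 50 after the start, 22.4% of all 32851 windows in the table held a match, and so did 12 of 40 windows (30%) of the 34 measured Rab genes with an entry. Matches stood also before genes with small differences, such as Rab11a (-0.03) and Rab21 (-0.04). A match is a string of letters and no evidence that the factor binds there. The promoters of Rab37, Rab38 and Rab7b were not analysed here.

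Rab7b (probe set 10349661), which directs traffic from late endosomes to the trans-Golgi network and is known in macrophages for routing Toll-like receptors to lysosomes, counted as measured only through the Runx3-/- arrays. Its log2 levels were 6.08, 6.24 and 6.48 in WT, all below the background of 6.5, and 7.24, 6.82 and 7.51 in Runx3-/- DC. Every Runx3-/- array stood above background and above the WT arrays, so the level was at least 1.61-fold higher. The fit across all probe sets gave an adjusted p of 0.090 (limma, unadjusted p = 0.0028), which did not pass and which takes the WT levels below background at their measured values. Rab7 (probe set 10546092), its relative and the main Rab of late endosomes and lysosomes, had WT log2 levels of 10.79, 11.01 and 10.92 and Runx3-/- levels of 10.92, 10.86 and 11.02. The values of both genotypes were interleaved, with a log2 difference of 0.03 (95% interval -0.19 to 0.24, adjusted p = 0.92).

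Rab38 (probe set 10554800), which works with Rab32 in the making of lysosome-related organelles such as melanosomes, had WT log2 levels of 6.75, 6.64 and 7.23 and Runx3-/- levels of 7.66, 7.32 and 7.54. The groups did not overlap, although WT 3 came close to Runx3-/- 2. The level was 1.55-fold higher, with a log2 difference of 0.63 (SE 0.17, limma, unadjusted p = 0.010, adjusted p = 0.159). Rab32 had WT log2 levels of 10.19, 9.93 and 9.66 and Runx3-/- levels of 10.71, 10.17 and 9.86. In both genotypes litter 1 was highest and litter 3 lowest, so the groups overlapped although the Runx3-/- mouse was higher in each litter, by 0.52, 0.24 and 0.19. The log2 difference of Rab32 was 0.32 (95% interval -0.26 to 0.90, adjusted p = 0.58). With the litter as a block in limma its unadjusted p was 0.026 and its adjusted p 0.22. Rab29, the third relative, which acts at the Golgi, had a log2 difference of -0.13 (95% interval -0.30 to 0.05).

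**Figure D2:**
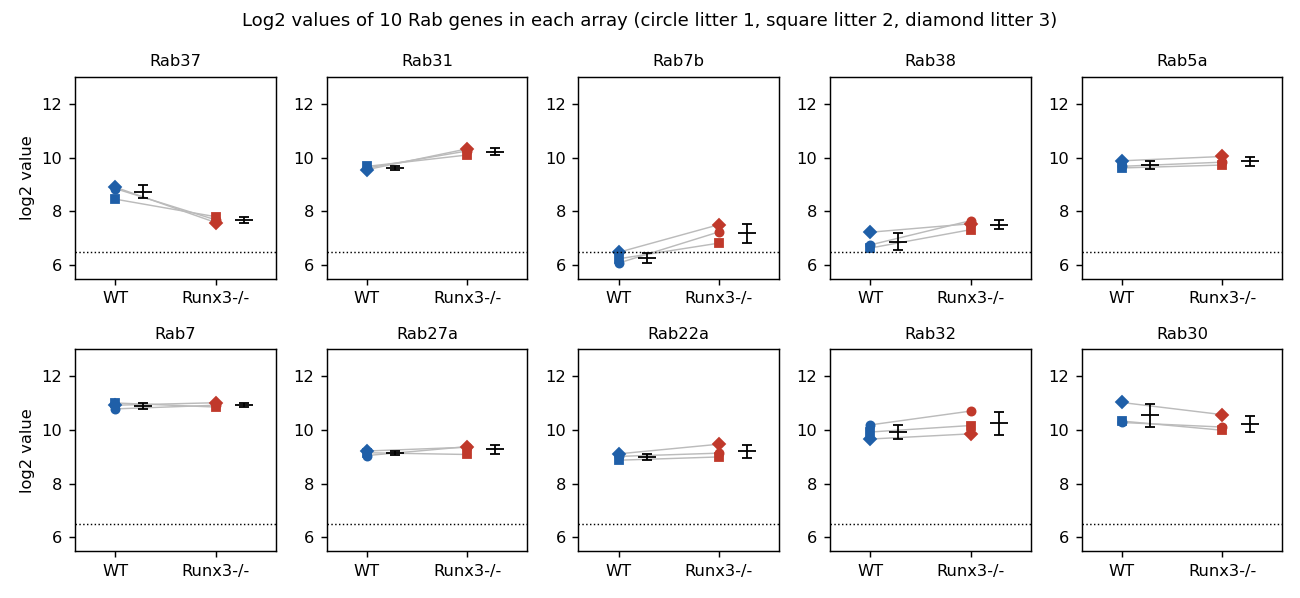
Log2 level (vertical axis, same range in each panel) of 10 Rab genes in the 3 WT (blue) and 3 Runx3-/- (red) arrays, with lines joining littermates, a black bar for the mean and whiskers for the SD. The dotted line is the background of 6.5. Rab37, Rab31, Rab7b and Rab38 show groups that do not overlap, Rab7b starts below the dotted line in all WT arrays, and the other 6 genes overlap between genotypes.

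The 9 measured Rabs of the early endosome, where incoming cargo is first sorted, had a median log2 difference of 0.10, and 1 of them passed the adjusted threshold. Rab5a (probe set 10445898), which drives fusion of early endosomes, had log2 levels of 9.68, 9.62 and 9.88 in WT and 9.83, 9.73 and 10.04 in Runx3-/- DC. Its values overlapped between genotypes, and the log2 difference was 0.14 (95% interval -0.14 to 0.42, adjusted p = 0.61). Within the litters it was 0.16, 0.11 and 0.16. The other forms, Rab5b and Rab5c, had log2 differences of -0.09 and -0.01. Rab14, of endosome to Golgi traffic, had 0.10 and Rab21, of integrin traffic, -0.04. Rab20, found on phagosomes of macrophages, had log2 levels of 6.76, 6.69 and 6.31 in WT, the last below background, and 7.01, 7.01 and 6.79 in Runx3-/- DC. These groups did not overlap, and the log2 difference was 0.35 (unadjusted p = 0.044, adjusted p = 0.30). Rab4b, of fast recycling, had a log2 difference of -0.15 with all Runx3-/- arrays below all WT arrays, and Rab4a was below background.

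The 5 measured Rabs of late endosomes and lysosomes had a median log2 difference of 0.06, and none passed the adjusted threshold. Beside Rab7 and Rab7b, Rab9, which returns receptors from late endosomes to the trans-Golgi network, had log2 levels of 9.25, 9.13 and 9.49 in WT and 9.64, 9.37 and 9.62 in Runx3-/- DC. Its groups overlapped, with a log2 difference of 0.25 (95% interval -0.04 to 0.55, adjusted p = 0.38). Within the litters the log2 difference of Rab9 was 0.39, 0.24 and 0.13. Rab12, of transport from recycling endosomes to lysosomes, and Rab24, linked to autophagy, had log2 differences of 0.06 and -0.11.

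The narrowest group was that of recycling endosomes and constant delivery to the plasma membrane. Its 6 measured genes, Rab8a, Rab8b, Rab10, Rab11a, Rab11b and Rab35, had log2 differences between -0.06 and 0.11 with a median of 0.01. For all 6 the 95% interval lay within 1.5-fold in either direction. Rab11a and Rab11b, the central Rabs of the recycling endosome, had log2 differences of -0.03 and 0.01. Rab8b had all Runx3-/- arrays above all WT arrays, and Rab8a all below, with log2 differences of 0.11 and -0.06 that did not pass (adjusted p = 0.46 and 0.72). The Rabs of this group that are known from epithelial cells or neurons, Rab13, Rab15, Rab17 and Rab25, were below background in every array.

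The 12 measured Rabs of the endoplasmic reticulum and the Golgi had a median log2 difference of -0.11, and none passed the adjusted threshold. Rab43 had log2 levels of 10.88, 10.82 and 10.75 in WT and 10.55, 10.57 and 10.33 in Runx3-/- DC. Rab19 had 9.06, 9.13 and 9.02 in WT and 8.70, 8.76 and 8.88 in Runx3-/- DC. The groups did not overlap for either of these Golgi Rabs, with log2 differences of -0.33 (adjusted p = 0.16) and -0.29 (adjusted p = 0.15). Rab30, a Golgi Rab related to both, had 10.28, 10.33 and 11.03 in WT and 10.11, 9.99 and 10.57 in Runx3-/- DC. Litter 3 was highest in both genotypes, and the Runx3-/- mouse was lower in each litter by a log2 difference of -0.17, -0.34 and -0.45, with a mean difference of -0.32 (95% interval -0.92 to 0.27, adjusted p = 0.59). With the litter as a block in limma the unadjusted p of Rab30 was 0.018 and the adjusted p 0.19. Rab1a and Rab1b, near copies that carry vesicles from the endoplasmic reticulum to the Golgi, both had groups that did not overlap, in opposite directions, with log2 differences of 0.16 (adjusted p = 0.34) and -0.11 (adjusted p = 0.47). Rab2a and Rab2b had 0.08 and -0.12, Rab6a, of traffic within the Golgi, had -0.00, Rab18, of lipid droplets, had 0.14, Rab33b had 0.04 and Rab39 had -0.17.

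The 5 measured Rabs of regulated secretion and lysosome-related organelles ran from Rab37 (-1.05), the lowest of the family, to Rab38 (0.63), with a median log2 difference of 0.14. Rab27a (probe set 10587023), which docks secretory lysosomes and also acts on phagosomes of DC, had log2 levels of 9.05, 9.15 and 9.22 in WT and 9.38, 9.09 and 9.36 in Runx3-/- DC. Runx3-/- 2 lay among the WT arrays while the other two stood above them, and the log2 difference was 0.14 (95% interval -0.12 to 0.39, adjusted p = 0.59). Rab27b, its near copy, was below background. Of the Rab3 genes, which serve regulated exocytosis, Rab3d alone counted as measured, with a highest level of 6.58 and a log2 difference of 0.08, whereas Rab3a, Rab3b and Rab3c stayed below background.

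Of the 3 remaining measured genes, Rab40c, an adaptor of a ubiquitin ligase, had log2 levels of 9.12, 8.96 and 9.03 in WT and 8.58, 8.76 and 8.57 in Runx3-/- DC. Its groups did not overlap, and the log2 difference of -0.40 (SE 0.09) did not pass (limma, unadjusted p = 0.0032, adjusted p = 0.096). Rab28, known from cilia of photoreceptors, had groups that did not overlap and a log2 difference of -0.17 (adjusted p = 0.27), and Rab23, of hedgehog signalling, had 0.01.

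**Figure D3:**
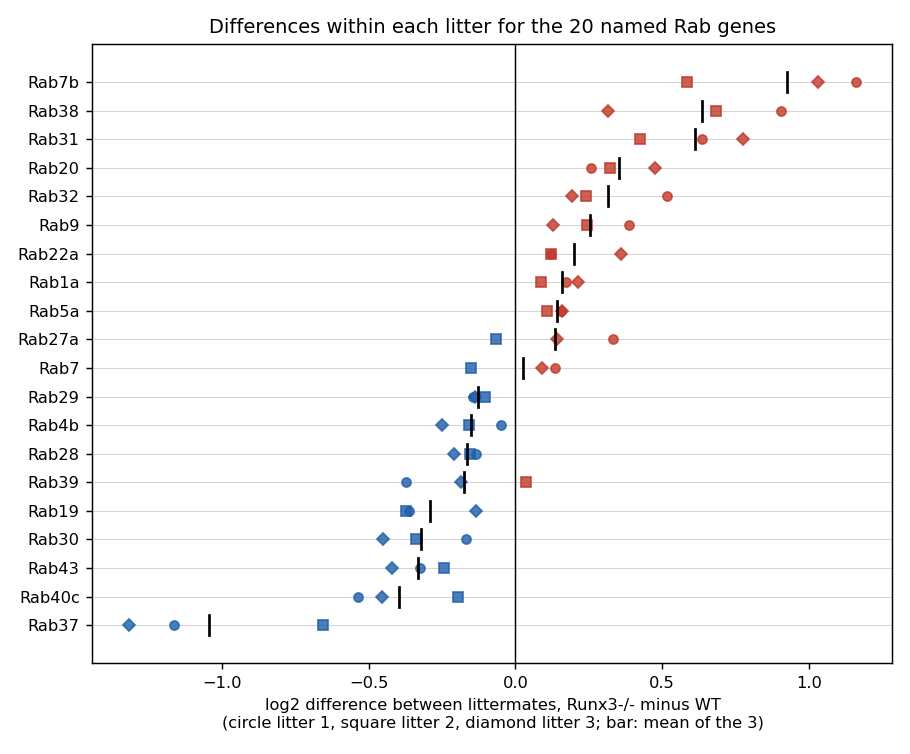
Log2 difference between the Runx3-/- and the WT mouse of each litter (horizontal axis) for 20 Rab genes, with the mean of the 3 litters as a bar. Red is above 0 and blue below 0. For 17 of the 20 genes the litters lie on one side of 0, and Rab7, Rab27a and Rab39 have litters on both sides. Most of the 20 were picked in these data for a large difference or a passed threshold, which favours litters on one side. Of all 40 measured Rab genes, 13 (32.5%) were higher in all 3 litters and 10 (25%) lower, against 19.3% and 32% of all measured genes. Rab7b, measured only through the Runx3-/- arrays, is among the 13.

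Littermates gave a second view of the same arrays. The Runx3-/- mouse was higher in all 3 litters for 13 of 40 Rab genes (32.5%), against 19.3% of all measured genes, and lower in all 3 for 10 (25%), against 32%. With the litter as a block in limma, the unadjusted p was at or under 0.05 for 11 Rab genes (27.5%), against 21% of all measured genes. Rab7b is among the 13 and among the 11, and counted as measured only through the Runx3-/- arrays. With the block no Rab gene had an adjusted p of at most 0.05, the smallest being 0.106. Over all probe sets 0 passed with the block, against 298 without it. Replicates of one genotype were close, with a median SD over the Rab genes of 0.09 in WT and 0.10 in Runx3-/- arrays and a largest SD of 0.43, that of Rab32 in the Runx3-/- arrays. Across the 40 Rab genes, Pearson's r was 0.990 to 0.997 for a pair of arrays of 1 genotype, 0.976 to 0.990 for littermates and 0.969 to 0.986 for the remaining pairs, over genes that are not replicates and share the normalization.

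The 19 Rab genes below 6.5 in all 6 arrays were Rab3a, Rab3b, Rab3c, Rab4a, Rab6b, Rab9b, Rab13, Rab15, Rab17, Rab25, Rab26, Rab27b, Rab33a, Rab34, Rab36, Rab39b, Rab40b, Rab42 and Rab44. They were not tested, and a level below background does not show that the RNA is absent. Closest to the limit from below were Rab4a, with a highest array at 6.26, and Rab44, at 6.24, and closest from above was Rab3d at 6.58. Of the 40 measured genes, 37 were at or above 6.5 in all 6 arrays. Several families had 1 measured gene and its near copies below background, among them Rab3d, Rab4b, Rab6a, Rab9, Rab27a, Rab33b, Rab39 and Rab40c. Rab2a, Rab5b and Rab11b each had a second probe set, whose log2 difference was 0.00, -0.08 and -0.07 beside 0.08, -0.09 and 0.01 on the one used. Members that lie near each other on a chromosome had unlike log2 differences, as for Rab31 and Rab12, with 8 protein-coding genes between them (0.61 and 0.06), and Rab43 and Rab7, with 6 between them (-0.33 and 0.03).

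The genes whose products switch, deliver or read Rab proteins were described from lists of 126 genes, of which 101 were measured. These lists were chosen with earlier results of these data known, so the shares below are a description and no test. Tbc1d2b was higher past the adjusted threshold in limma (0.99% of the 101, against 1.36% of all measured genes) and 0 were lower (against 0.907%). At an unadjusted p up to 0.05, 10 were higher (9.9%, against 7.59%) and 31 lower (30.7%, against 11.8%). The median log2 difference of the 101 was -0.09. Below 0 lay 71 of them (70.3%), against 58.7% of all measured genes, and after median centring of the arrays 62.0% of 100, against 47.9%. The Runx3-/- arrays all lay below the WT arrays for 36 (35.6%, against 18.6%) and all above for 14 (13.9%, against 9.86%).

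Tbc1d2b (probe set 10595680) is a TBC-family protein of the kind that switches Rabs off. Its log2 levels were 9.71, 9.79 and 9.50 in WT and 10.49, 10.37 and 10.22 in Runx3-/- DC. All Runx3-/- arrays stood above all WT arrays, a 1.62-fold higher level, with a log2 difference of 0.69 (SE 0.11, limma, adjusted p = 0.044). With the litter as a block the adjusted p was 0.081, and it lay between 0.0795 and 0.183 when any 1 of the 6 arrays was left out. Of the 34 measured activating proteins, with a median log2 difference of -0.08, Tbc1d16, which acts on the fast recycling Rab4a, had log2 levels of 8.75, 8.73 and 8.94 in WT and 7.83, 8.23 and 8.13 in Runx3-/- DC. The groups were well apart, yet the log2 difference of -0.75 (SE 0.12) lay just outside the threshold (adjusted p = 0.0503). Evi5l and Tbc1d5 had log2 differences of -0.41 and -0.30 (adjusted p = 0.095 and 0.16).

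The 30 measured exchange factors had a median log2 difference of -0.06, and none passed the adjusted threshold. Rab3ip, the exchange factor of Rab8 also called Rabin8, had log2 levels of 8.81, 8.69 and 8.58 in WT and 8.14, 8.20 and 7.96 in Runx3-/- DC, and its relative Rab3il1 had 7.15, 7.41 and 7.20 in WT and 8.66, 8.02 and 7.97 in Runx3-/- DC. Neither gene had overlapping groups, and their differences had opposite signs. The log2 difference was -0.59 (SE 0.10, adjusted p = 0.051) for Rab3ip and 0.96 (SE 0.20, adjusted p = 0.087) for Rab3il1. Sbf1 and Dennd4b, of the DENN-domain exchange factors, had log2 differences of -0.50 and -0.33 (adjusted p = 0.079 and 0.099).

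Of the genes for lipid attachment and membrane delivery of Rab proteins, 6 were measured, with a median log2 difference of -0.12 and none past the threshold. Rabggtb, a subunit of the enzyme that attaches the lipid, had 0.26, the escort protein Chm -0.15, Rabac1, which helps Rabs onto membranes, -0.23, and Gdi2, which extracts inactive Rabs, -0.10. The 31 measured effectors had a median of -0.13, with 23 of them below 0 and none past the adjusted threshold. Those with the smallest p were Ocrl, a lipid phosphatase bound by several Rabs, with a log2 difference of 0.36 (adjusted p = 0.056), Rab11fip2, of the recycling Rab11, with -0.37 (adjusted p = 0.068), Micall1, of recycling tubules, with -0.33 (adjusted p = 0.085), and Unc13d, a partner of Rab27a in the release of secretory lysosomes, with -0.39 (adjusted p = 0.13).

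**Figure D4:**
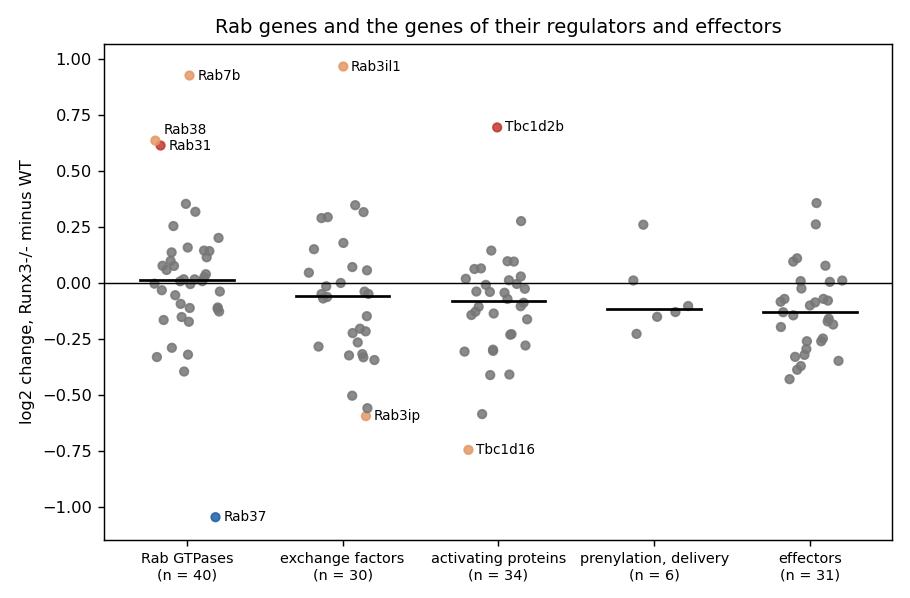
Log2 difference (vertical axis) of each measured Rab gene and of the measured genes for exchange factors, activating proteins, prenylation and delivery, and effectors, 1 point per gene, with the median as a bar. Red and blue mark an adjusted p of at most 0.05, orange the study's thresholds only. The medians run from 0.01 for the Rab genes to -0.13 for the effectors, and Tbc1d2b is the one partner in red.

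Genes used as markers of other spleen cells differed between the genotypes in the same arrays. Some of them the study reports as responding to Runx3 in DC. It lists Spic and Irf8 among the genes that rise in CD4+ DC without Runx3. It also reports Cx3cr1 and Irf8 as raised in Runx3-deleted DC with high Esam, and Runx3 bound at Cx3cr1. Of 12 markers of red pulp macrophages 11 were measured, all 11 with a log2 difference above 0 and a median of 1.31. Of all measured genes 58.7% lay below 0. Higher past the adjusted threshold were 6 of the 11, against 1.36% of all measured genes, among them Spic, Mertk, C1qa and Cd5l. Cd5l and Siglec1 counted as measured only through the Runx3-/- arrays, so the filter favoured a difference above 0. Their levels were at least 1.32-fold and 1.04-fold higher. Adgre1 had a log2 difference of 0.01 (adjusted p = 0.97) and Hmox1 of 0.22 (adjusted p = 0.60), both with overlapping groups. The summed linear level of the red pulp macrophage markers ran from 8768 to 11522 in WT and from 15141 to 17931 in Runx3-/- arrays. Cd163, also a marker of these cells, was below background in every array. Of the monocyte markers 5 were measured and Cx3cr1 passed. Ccr2, Csf1r and Fcgr1 were higher without passing, and Nr4a1 had a log2 difference of -0.003 (adjusted p = 0.995). The sum of the monocyte markers ran from 4920 to 6663 in WT and from 8323 to 8492 in Runx3-/- arrays, with F13a1 below background. The 7 markers of CD8+ DC had sums of 1885 to 2063 and of 2679 to 3789. Of these, Cadm1 and Irf8 were higher past the threshold, whereas Batf3 had a log2 difference of -0.47 (adjusted p = 0.20) with all Runx3-/- arrays below all WT arrays, and Tlr3 had 0.09. Clec9a was highest in Runx3-/- 3, at 8.33, and Cd8a was above background only in that array, at 6.54. Sums for plasmacytoid DC were 1333 to 1434 and 1496 to 3836. The high end was that of Runx3-/- 3, where Siglech stood at 10.18, against 7.46 and 8.18 in Runx3-/- 1 and 2. For B cells the sums were 1080 to 1539 and 1689 to 1798, with Pax5 and Ebf1 below background. Cd79b had a log2 difference of 0.58 (adjusted p = 0.077) and Cd79a of -0.01, while Ms4a1 was highest in WT 3, at 8.70. T-cell markers summed to 713 to 892 and 697 to 789 with Cd3d, Cd3e and Cd3g below background. Cd5, at log2 levels of 9.05 to 9.58, was the only T-cell marker measured. All 5 NK-cell markers were below background, and so was Alas2 for erythroid cells. Granulocyte markers summed to 161 to 188 in WT and 179 to 300 in Runx3-/- arrays. Of these only Ngp counted as measured, through Runx3-/- 1 alone, at 7.13. Of the 9 CD4+ DC markers only Irf4 passed the adjusted threshold, with a log2 difference of -0.62 (limma, adjusted p = 0.043). The 9 went both ways, 4 of them above 0, with a median of -0.11. All Runx3-/- arrays lay above all WT arrays for Itgam (0.47) and Sirpa (0.16). They all lay below for Zbtb46 (-0.35), Flt3 (-0.28) and Itgax (-0.11), as for Irf4. Cd4 (0.03), Esam (0.15) and H2-Ab1 (-0.13) had overlapping groups. The study reports Flt3 as raised in Runx3-deleted DC with high Esam, and Itgax as lowered without Runx3. The part of other spleen cells in the differences of Rab31, Rab7b, Rab20, Rab37 and the other Rab genes was not tested.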

How the data were processed

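The authors hybridised RNA of sorted splenic CD4+ DC to Affymetrix arrays and summarised each probe set by RMA with GC correction in Partek Genomics Suite. They deposited log2 values, and the submitters' processing notes name mm9, with no software version. Since RMA makes the distributions of the arrays alike, it can hide a shift common to most genes, and folds of dim probe sets are compressed. The deposited values still differed slightly between arrays, with medians of 6.57 to 6.65. Of all measured genes 58.7% had a log2 difference below 0, against 50.4% after quantile normalization. An exon array is named in the methods, while the probe set annotation is that of a gene-level array, and labels and methods differ on the RNA kit. The platform annotation gave 1 symbol for 21789 of 35399 probe sets, several for 1621 and none for 11989. All 59 Rab symbols matched the RefSeq gene table by Entrez number.

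Values were used as deposited. The 19149 probe sets with a log2 level of at least 6.5 in at least 1 array were tested by limma 3.58.1 in R 4.3.3, two-sided and with genotype as the term, using lmFit, eBayes and Benjamini-Hochberg adjustment over all of them and a threshold of 0.05. The fit was tested on simulated data. Folds compare geometric means, and a group below 6.5 on all its arrays gives a bound, computed against 6.5. Arrays carry no read depth, and their number limits the precision. The labels pair the arrays by litter. Deviations from the genotype means correlated at 0.158, 0.102 and 0.246 within litters and at -0.230 to 0.103 between arrays of different litters and genotypes. The litter block is given for Runx3, for the Rab and partner genes whose adjusted call it changed, and for Rab30 and Rab32. It is not given for each marker of other cells.

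The Rab genes, the lists of partners and markers and the named genes were chosen with earlier results of these data known. Named were all Rab genes past the adjusted threshold or the study's thresholds, the markers Rab5a, Rab7 and Rab27a, the 12 further Rab genes with the largest differences, measured relatives, and up to 4 partners of each list with the smallest p. Other Rab genes are given for completeness of their role group. The alternatives were the litter block, the methods' analysis of variance, quantile normalization, median centring, no filter, the filter in 3 arrays, array weights, a trend in eBayes, the mean of a gene's probe sets, and leaving out each array. Promoter sequences come from RefSeq, build GRCm38.p6.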

Additional observations from a re-analysis of the deposited data

How the results depend on the processing

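Of 300 values of the 20 named Rab genes under 15 alternatives, 282 kept their direction and their side of the adjusted threshold, 14 lost the call and 2 gained it. The remaining 2 were of Rab7, whose log2 difference of 0.03 became -0.034 without WT 1 and -0.017 without Runx3-/- 3, within a range of -0.034 to 0.076 when 1 array was left out. For the 16 named partner genes 215 of 240 stayed, 9 lost the call, 16 gained it and 0 reversed.

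The Rab genes past the adjusted threshold (1 higher, 1 lower) numbered 0 and 0 with the litter as a replicate block and with the methods' analysis of variance, and 2 and 2 with array weights, where Rab7b (adjusted p = 0.0390) and Rab40c (0.0483) joined. Leaving out 1 array gave 0 to 1 in each direction. With Rab3ip, Rab5if and Rab10os counted as Rab genes, an alternative added after seeing the data, 2 in place of 1 were lower at the study's thresholds. Partner genes higher past the adjusted threshold (1) numbered 0 with the replicate block, the analysis of variance and any 1 array left out, 2 with quantile normalization, median centring or the filter in 3 arrays, and 3 with array weights. Those lower (0) numbered 1 with median centring, 2 with the filter in 3 arrays or the trend, and 5 with array weights. The Runx3 difference was -1.98 with the replicate block (adjusted p = 0.061), and -2.03 to -1.96 when 1 array was left out. The median of the Rab genes lay between -0.01 and 0.05 under all alternatives. The causes were not tested. The 3 arrays per genotype limit the precision, and Rab7b, whose WT signal was below 6.5, has a bound for its fold. The SE was largest for Rab30 (0.246) and Rab32 (0.240).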
